A study of Homo sapiens with 72 samples.

Results

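Expression of 10 immediate early genes was followed across every compound and dose: IER2, IER3, IER5 and IER5L of the immediate early response group, the nuclear receptors NR4A1, NR4A2 and NR4A3, and ARC, MAFF and SRF. They were picked by name, through the gene symbol paired with each Ensembl identifier. They are 10 of the 60371 genes listed in each library, of which 56104 could be paired with a symbol. Each of the 10 passed the filter on low counts in all 18 comparisons with DMSO.

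Immediate early genes are transcribed within minutes of a growth factor, calcium or stress signal, from factors that are already present in the cell. SRF is among those factors: it binds CArG boxes together with ternary complex factors or the myocardin-related coactivators MRTFA and MRTFB. CREB binds cAMP response elements (CRE) in many of the same genes. The transcripts are as a rule short-lived, so that their level follows the balance of ongoing synthesis and decay closely.

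The 72 wells held U2OS cells, a human osteosarcoma line, kept in medium with serum and harvested 12 h after treatment. DMSO alone was given to 18 wells, and 3 wells each received homoharringtonine, triptolide, nilotinib, MK-2206, pyrazolanthrone or miglitol at 100, 1000 or 10000 nM. The middle dose is that of the sample labels, which the study's methods text writes differently, and values at 1000 nM and slopes on dose rest on the labels. Homoharringtonine blocks translation, triptolide blocks transcription, nilotinib and MK-2206 inhibit the ABL and AKT kinases, pyrazolanthrone inhibits JNK and miglitol inhibits intestinal alpha-glucosidases. RNA was selected on poly A and made into stranded TruSeq libraries.

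The expected counts summed to 38.4 mil at the median well (0.071 to 68.3 mil), and 3 libraries lay under 10 mil. These were replicate 2 of 100 nM triptolide (0.071 mil), DMSO replicate 10 (0.46 mil) and replicate 1 of 1000 nM triptolide (9.63 mil), and results that turn on them are given with and without them. Mesenchymal markers fitted the label in part: in DMSO wells the median was 1868 TPM for VIM, 452 TPM for COL1A1 and 2137 TPM for SPARC, while COL1A2 and NT5E were at 0.07 and 0.03 TPM and the osteoblast markers SP7 and IBSP had medians of 0. The blood markers CD3E and HBB had DMSO medians of 0, and EPCAM, an epithelial marker, was at 2.38 TPM.

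Promoter sequence was read for the members that the RefSeq promoter table of GRCh38.p14 holds, which were 7 of the 10. Windows ran from 250 bases before to 50 bases after each start and were searched on both strands for 8 motifs. SRF, NR4A1 and MAFF had more than 1 start and window each, and a member was counted where any of its windows matched. Positions are given from the start of the window concerned, which can differ from the first base of the gene. The CRE, TGACGTCA, was found in 1.848% of all 35116 windows and, among the members, in MAFF alone. Its core TGACG, which the full CRE contains, was found in 24.553% of windows and in IER2, NR4A3, MAFF and SRF. CArG boxes were found in 1.293% of windows and among the members in SRF only, which held 2 of them within 30 bases of its start. NF-kB sites (11.266% of windows) were found in MAFF and SRF, and that of MAFF lay in a different window from its CRE. The TATA box letters TATAAA (11.53%) were found in SRF, but on the opposite strand and at 14 to 19 after its start. The AP-1 site TGANTCA (7.709%), the NR4A element AAAGGTCA (1.216%) and the EGR site GCGTGGGCG (0.795%) were found in none of the 7. The 4 promoters below are shown because they hold the CRE cores and CArG boxes that the text describes; each gives the 250 bases before the start, 5′ to 3′ on the gene's strand (+ in all 4), with CRE, CRE core and CArG matches in capitals.
IER2 (chr19:13150161-13150410, +): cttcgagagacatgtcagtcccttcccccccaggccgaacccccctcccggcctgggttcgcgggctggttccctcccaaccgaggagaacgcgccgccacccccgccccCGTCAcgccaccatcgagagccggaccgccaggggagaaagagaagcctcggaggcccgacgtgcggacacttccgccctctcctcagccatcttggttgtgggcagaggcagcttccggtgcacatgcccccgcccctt
NR4A3 (chr9:99821635-99821884, +): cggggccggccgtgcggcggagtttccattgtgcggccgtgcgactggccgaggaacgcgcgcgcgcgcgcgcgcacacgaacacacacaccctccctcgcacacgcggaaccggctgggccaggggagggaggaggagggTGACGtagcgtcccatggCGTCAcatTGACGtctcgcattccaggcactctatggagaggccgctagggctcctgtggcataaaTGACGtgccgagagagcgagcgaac
MAFF (chr22:38201744-38201993, +): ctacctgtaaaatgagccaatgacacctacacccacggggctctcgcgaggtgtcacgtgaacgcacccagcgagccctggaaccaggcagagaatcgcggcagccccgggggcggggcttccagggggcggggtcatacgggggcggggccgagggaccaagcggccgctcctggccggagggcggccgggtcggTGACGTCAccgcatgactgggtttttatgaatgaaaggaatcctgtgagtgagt
SRF (chr6:43171019-43171268, +): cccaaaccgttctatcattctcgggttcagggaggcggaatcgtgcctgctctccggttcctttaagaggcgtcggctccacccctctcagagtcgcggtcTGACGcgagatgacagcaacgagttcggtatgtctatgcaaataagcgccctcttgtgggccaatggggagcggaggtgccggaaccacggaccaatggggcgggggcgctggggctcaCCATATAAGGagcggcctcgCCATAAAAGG
A match describes the letters of the window and no binding was measured. NR4A3 carried 4 CRE cores, at -109, -91, -83 and -25 from its start, and IER2 carried 1, at -140. In MAFF the full CRE began at -54, and in SRF the CArG boxes began at -30 and -10.

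In DMSO wells the members spanned a wide range of levels per length. IER2 had the highest median, 52.4 TPM (range 42.3 to 163.3, n = 18), followed by IER3 at 47.9 TPM (31.5 to 55.7), and their ranges overlapped. IER2 (ENSG00000160888, chr19:13150411-13154911) encodes a nuclear regulator of transcription, and IER3 (ENSG00000137331, chr6:30743199-30744548) a membrane-anchored stress protein. ARC, a cytoskeleton-associated capsid-like protein best known from neurons (ENSG00000198576, chromosome 8), came next at 30.6 TPM. SRF (ENSG00000112658, chr6:43171269-43181506) was at 29.8 TPM (24.7 to 34.3) and IER5 (ENSG00000162783, chr1:181088700-181092900), a partner of the PP2A phosphatase and HSF1, at 27.0 TPM (23.7 to 45.0). The ranges of ARC, SRF and IER5 overlapped.

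Below these, NR4A1 (ENSG00000123358, chr12:52022832-52059507) had a median of 13.5 TPM and MAFF (ENSG00000185022, chr22:38200767-38216507), a small MAF protein that pairs with NFE2 factors, 12.0 TPM, with overlapping ranges. IER5L (ENSG00000188483, chr9:129175552-129178261), a paralog of IER5, was at 4.86 TPM (3.35 to 7.14), below every MAFF well. NR4A3 (ENSG00000119508, chr9:99821855-99866891) and NR4A2 (ENSG00000153234, chr2:156324437-156342348) were lowest, at 0.975 and 0.87 TPM, and could not be ordered beyond their spread. The NR4A proteins are orphan nuclear receptors that bind DNA without a known ligand of the usual kind.

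DMSO replicate 10 stood apart from the other 17 wells for several members. In CPM, the expected counts scaled with TMM factors over all 72 wells, ARC was 353.8 there, from 202 counts, against 38.3 to 67.8 in the others. MAFF was 91.1 CPM against 13.8 to 29.5, IER2 187.4 against 53.4 to 82.9, IER5 108.6 against 58.9 to 92.6 and NR4A3 5.25, from 3 counts, against 1.68 to 3.41. IER3, IER5L, NR4A1, NR4A2 and SRF lay within the range of the other wells. This library widened the DMSO spread of ARC, IER2 and MAFF most: with it the SD was 71.7 CPM for ARC, 29.1 CPM for IER2 and 17.4 CPM for MAFF, and without it 9.04, 8.45 and 4.63 CPM.

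Homoharringtonine raised 7 of the 10 members at 100 nM, where 15.6% of all tested genes were raised, 6 at 1000 nM (21.5% of genes) and 6 at 10000 nM (23.6% of genes), and lowered none. A member was called raised or lowered where its log2(Fold Change) against the 18 DMSO wells was above 1 or below -1 with an adjusted p-value under 0.05. ARC rose most at every dose, followed by MAFF, and IER2, NR4A1, NR4A2 and NR4A3 rose at all 3. The median log2(Fold Change) of the members was 1.88, 2.71 and 2.61 in order of dose, against -0.03, -0.01 and -0.05 over all genes. Fold changes are set against most other transcripts by the scaling, and fewer cells and less RNA per cell cannot be told apart.

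**Figure D1:**
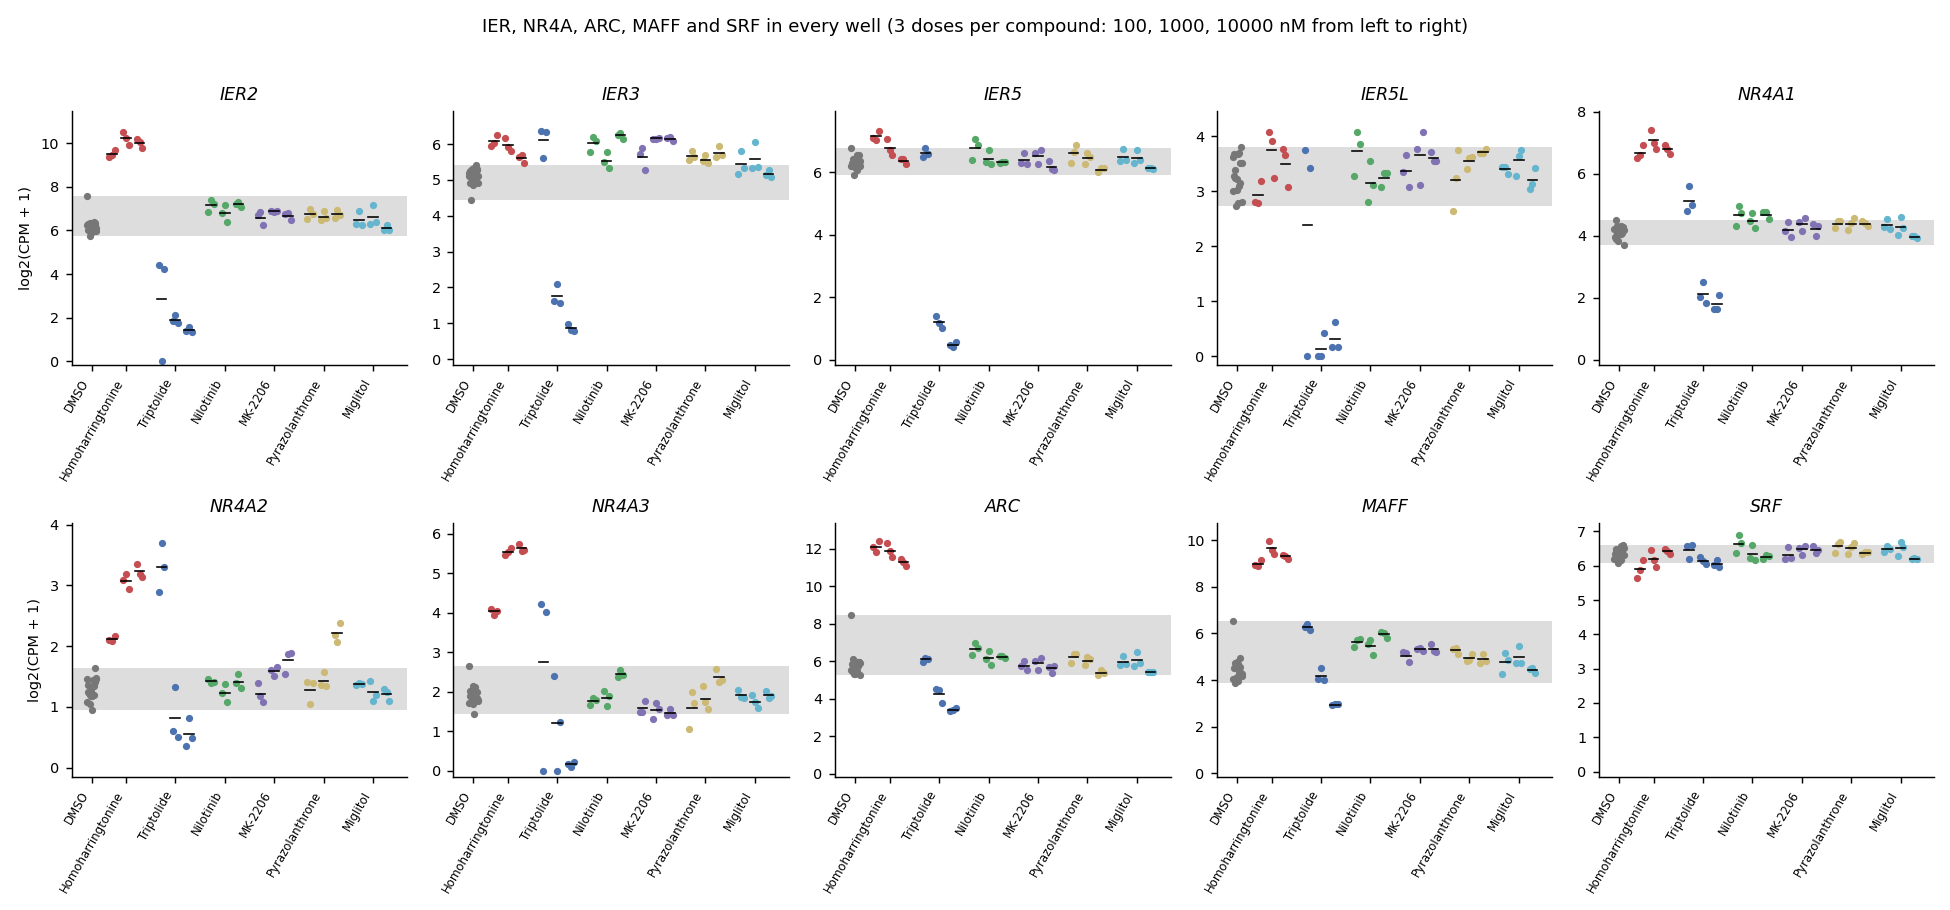
Each panel plots log2(CPM + 1) of a member in all 72 wells, with the 3 doses of a compound from left to right, points for wells, black lines for group means and a grey band for the range of the 18 DMSO wells. Homoharringtonine wells sit above the band for IER2, IER3, NR4A1, NR4A2, NR4A3, ARC and MAFF, and wells with 10000 nM triptolide sit below it for every member but SRF, which overlaps it. The share of all genes whose wells leave the band is not given here, so the panels describe the members only.

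ARC reached 4299, 3654 and 5422 CPM in the 3 wells with 100 nM homoharringtonine, against a DMSO median of 53.3 CPM. At 1000 nM it was 4981, 3735 and 3028 CPM, and at 10000 nM 2826, 2492 and 2168 CPM. Every treated well was above every DMSO well, and the wells with 10000 nM were below all those with the lower doses. The log2(Fold Change) was 6.21 (SE 0.33, adjusted p = 4.2e-14), 6.00 (SE 0.34, adjusted p = 1.4e-13) and 5.33 (SE 0.33, adjusted p = 5.1e-13). Without the libraries under 10 mil, DMSO replicate 10 among them, these were 6.42, 6.24 and 5.56.

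MAFF was 487.4, 475.9 and 577.0 CPM with 100 nM homoharringtonine, against a DMSO median of 19.2 CPM. It was 1005, 758.5 and 675.8 CPM at 1000 nM and 661.8, 649.7 and 585.0 CPM at 10000 nM. No treated well came near the DMSO wells, of which the highest held 91.1 CPM. For MAFF the log2(Fold Change) was 4.63, 5.27 and 4.89, with SE of 0.23 to 0.24 and adjusted p of 9.6e-15, 1.9e-15 and 3.1e-15.

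IER2 also rose by a large amount. Its wells held 659.2, 700.8 and 831.6 CPM at 100 nM, 1457, 1208 and 958.0 CPM at 1000 nM and 1151, 1076 and 867.1 CPM at 10000 nM, against a DMSO median of 67.2 CPM. All 9 wells were above all DMSO wells. Against DMSO the log2(Fold Change) was 3.34, 4.05 and 3.80, each with an SE of 0.17 (adjusted p = 1.3e-14, 6.6e-16 and 1.0e-15).

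The 3 NR4A receptors rose to different degrees. NR4A1 was 90.3, 96.5 and 121.3 CPM at 100 nM and 99.4 to 171.6 CPM at the higher doses, against a DMSO median of 16.5 CPM, with a log2(Fold Change) of 2.64, 3.04 and 2.70. NR4A3 went from a DMSO median of 2.69 CPM to 16.1, 14.4 and 15.5 CPM at 100 nM and to 43.2 to 52.4 CPM at the higher doses. Its log2(Fold Change) of 2.52 (SE 0.13), 4.09 (SE 0.12) and 4.15 (SE 0.11) passed NR4A1 from 1000 nM on. NR4A2 was 3.28, 3.23 and 3.48 CPM at 100 nM and 6.64 to 9.23 CPM above that, against a DMSO median of 1.38 CPM, and its log2(Fold Change) was 1.23, 2.37 and 2.52. For each receptor, every homoharringtonine well was above every DMSO well.

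Per length, the order of the members changed. With 10000 nM homoharringtonine ARC had the highest median, 1366 TPM, ahead of IER2 at 853.4 TPM and MAFF at 439.1 TPM, whereas IER3 was at 69.2 TPM and SRF at 31.9 TPM. NR4A1 stayed the highest of the 3 receptors at 76.2 TPM, with NR4A3 at 17.1 and NR4A2 at 4.41 TPM.

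**Figure D2:**
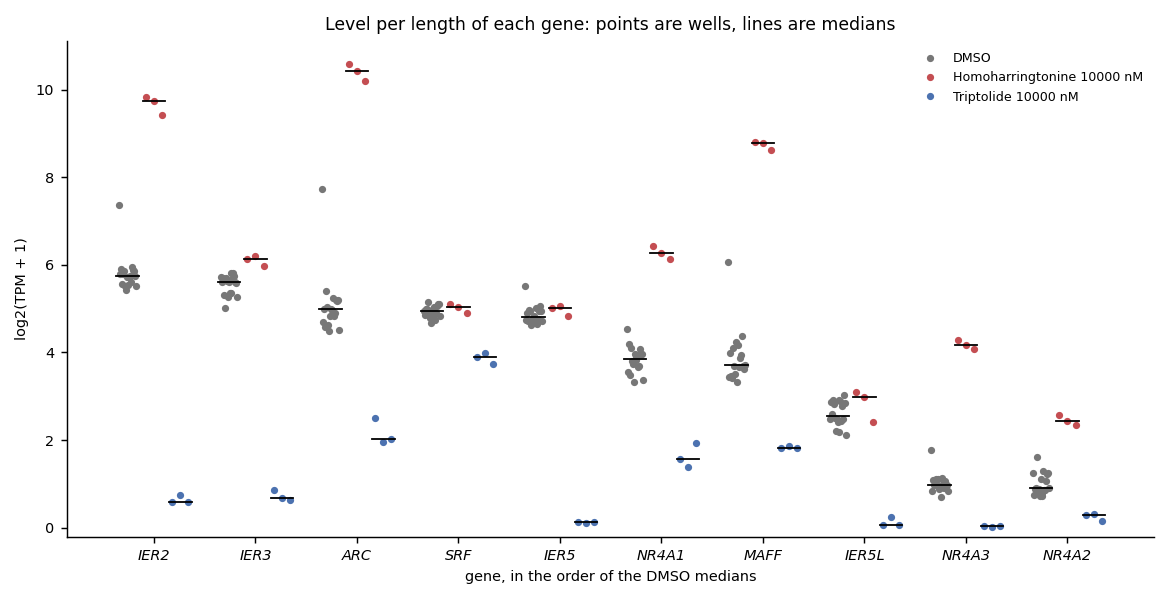
Wells are plotted as log2(TPM + 1), a level per length, for DMSO and for the highest dose of homoharringtonine and triptolide, with members in the order of their DMSO medians and lines for group medians. ARC, at 30.6 TPM in DMSO, is highest with homoharringtonine at 1366 TPM, and SRF is highest with triptolide at 13.8 TPM.

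IER3 and IER5 gave smaller differences that shrank with dose. IER3 was 60.9, 64.8 and 74.6 CPM at 100 nM against a DMSO range of 20.8 to 41.8 CPM, with no overlap, and its log2(Fold Change) of 1.003 (SE 0.13, adjusted p = 2.1e-07) lay at the fold limit. It was 0.77 with scaling to library sizes only, 0.97 with DESeq2, 0.91 without replicate 3 and 0.98 without the libraries under 10 mil, so that the call ended while the direction held. At 1000 and 10000 nM the values were 0.87 and 0.47, under the limit, although all wells (43.1 to 70.9 CPM) were above all DMSO wells. IER5 had a log2(Fold Change) of 0.88 (adjusted p = 5.0e-07), 0.50 (0.0016) and 0.06 (0.69).

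IER5L and SRF were not called at any dose of homoharringtonine. IER5L wells ranged from 5.95 to 16.005 CPM, across and beyond the DMSO range of 5.69 to 13.04 CPM. SRF was 49.0, 57.2 and 70.9 CPM at 100 nM, where the DMSO wells held 65.9 to 96.4 CPM, with a log2(Fold Change) of -0.46 (SE 0.12, adjusted p = 0.0018). At 10000 nM its value was 0.02, and its wells of 79.6 to 89.5 CPM lay within the DMSO range.

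Within the homoharringtonine wells a linear trend on log10 dose passed the test for 3 rising members (21.1% of genes rose) and 3 falling members (22.9% of genes fell). NR4A3 rose by 0.79 (SE 0.16) and NR4A2 by 0.63 (SE 0.12) on the log2 scale per 10-fold dose, and SRF by 0.23 (adjusted p = 0.042). ARC fell by 0.45, IER5 by 0.42 and IER3 by 0.27. Those of SRF, ARC and IER3 did not last. SRF had an adjusted p of 0.18 without replicate 1 and 0.27 without replicate 2. For IER3 it was 0.12 without replicate 2 and 0.16 without replicate 3, and for ARC 0.069 without replicate 3. With scaling to mitochondrially encoded mRNAs 1 rising and 1 falling member were left, so that NR4A3 and NR4A2 did not both keep their call.

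Triptolide gave a mixed picture at 100 nM and a general fall above it. At 100 nM 4 members were raised (11.4% of genes) and 1 was lowered (20.9% of genes), at 1000 nM 6 were lowered (30.4% of genes) and at 10000 nM 9 were lowered (30.2% of genes). SRF was the exception at the highest dose with TMM scaling. The median log2(Fold Change) of the members was 0.57, -2.04 and -3.66 in order of dose, against -0.16, -0.21 and -0.17 over all genes. Mitochondrially encoded mRNAs took 0.138 to 0.367% of counts in DMSO wells, 0.52 to 0.62% of counts at 100 nM, 0.77 to 1.09% at 1000 nM and 1.01 to 1.15% at 10000 nM, and scaling to them lowered the median of all genes by 1.65, 2.47 and 2.75 on the log2 scale. Under that scaling no member was raised and 5 were lowered at 100 nM, and at 1000 nM every member was lowered, SRF among them. The share of all genes called under it is not given here, so these counts are not read as particular to the members. The part of the mitochondrial share in the result was not tested.

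The 4 members raised at 100 nM triptolide were NR4A3, NR4A2, MAFF and IER3. NR4A3 was 17.7 and 15.2 CPM in replicates 1 and 3, above every DMSO well, and had no count in replicate 2, the library of 70767 counts. NR4A2 was 6.46, 12.0 and 8.92 CPM, the middle value from 1 count, against a DMSO range of 0.93 to 2.11 CPM. Their log2(Fold Change) was 2.56 (SE 0.17, adjusted p = 1.6e-11) and 2.44 (SE 0.20, adjusted p = 2.8e-10), and 2.64 and 2.43 without the libraries under 10 mil.

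MAFF was 77.4, 84.3 and 70.3 CPM at this dose, above 17 DMSO wells and below DMSO replicate 10, with a log2(Fold Change) of 1.84 (SE 0.30, adjusted p = 1.5e-05). IER3 was 82.1, 48.2 and 80.0 CPM against a DMSO maximum of 41.8 CPM, and its log2(Fold Change) was 1.23 (SE 0.14, adjusted p = 1.2e-07). The IER3 call ended with scaling to library sizes only, at 0.91. NR4A1 was above all DMSO wells at 26.8, 48.2 and 30.6 CPM, with a log2(Fold Change) of 0.85 (adjusted p = 5.4e-05), under the fold limit. NR4A1 was at 1.01 without replicate 1, a fit that keeps replicate 2, the library of 70767 counts. The middle CPM values of MAFF, IER3 and NR4A1 here are from that library and rest on few counts.

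IER2 was the member that fell at 100 nM triptolide. It held 20.2 and 17.7 CPM in replicates 1 and 3 and no count in replicate 2, against 53.4 to 187.4 CPM in DMSO wells. It had a log2(Fold Change) of -1.97 (SE 0.30, adjusted p = 5.9e-06), and -1.84 without the libraries under 10 mil. IER5, IER5L, ARC and SRF had log2(Fold Change) of 0.29, 0.26, 0.12 and 0.19, with wells that overlapped those of DMSO.

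At 1000 nM the 4 IER genes were nearly gone. IER5 was 1.67, 1.28 and 1.02 CPM, against a DMSO range of 58.9 to 108.6 CPM, and at 10000 nM it was 0.40, 0.33 and 0.47 CPM, from 9 to 12 counts per well. The log2(Fold Change) was -6.00 (SE 0.23, adjusted p = 5.9e-17) and -7.63 (SE 0.23, adjusted p = 8.2e-19), the largest fall of any member. IER5L had no count in 2 of the 3 wells with 1000 nM and 0.12 to 0.54 CPM at 10000 nM, with a log2(Fold Change) of -5.40 and -5.13. Its value at 1000 nM rests on replicate 3, which held 13.8 counts and was the deepest of the 3 libraries.

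IER2 fell to 2.57, 3.37 and 2.33 CPM at 1000 nM and to 1.62, 1.996 and 1.503 CPM at 10000 nM, with a log2(Fold Change) of -4.79 and -5.46 (SE 0.33 for each). IER3, raised at the lowest dose, was 2.06, 3.26 and 1.97 CPM and then 0.99, 0.76 and 0.71 CPM, with a log2(Fold Change) of -3.86 and -5.40 (SE 0.22 for each). For all 4 IER genes each well of both doses was below every DMSO well.

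The NR4A receptors fell less evenly. NR4A1 was 3.09, 4.65 and 2.597 CPM at 1000 nM and 2.09, 2.14 and 3.24 CPM at 10000 nM, against 12.2 to 21.8 CPM in DMSO wells, with a log2(Fold Change) of -2.32 and -2.78. NR4A3 held 33, 0 and 56 counts in the 3 wells with 1000 nM, or 4.25, 0 and 1.36 CPM, and its log2(Fold Change) of -0.62 (adjusted p = 0.19) did not pass the test. Without replicate 1, of 9.63 mil, the NR4A3 value was -1.64 (adjusted p = 0.0012). Replicate 2, which held the 0, was nearly as shallow at 10.7 mil. At 10000 nM NR4A3 had 2 to 4 counts per well and fell by 4.54 on the log2 scale (adjusted p = 9.6e-13).

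NR4A2 was 0.52, 1.51 and 0.41 CPM at 1000 nM, from 4, 13 and 17 counts, with a log2(Fold Change) of -0.98 (adjusted p = 0.011), just short of the fold limit. Without replicate 2 it was -1.72 (adjusted p = 9.1e-05), and it was -1.43 with library sizes only. At 10000 nM it fell by 1.61 (SE 0.27, adjusted p = 1.1e-05), with wells of 0.28, 0.76 and 0.40 CPM below all DMSO wells.

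ARC and MAFF, the members with the largest rise under homoharringtonine, fell by moderate amounts. ARC was 21.6, 21.3 and 12.6 CPM at 1000 nM and 9.29, 9.47 and 10.3 CPM at 10000 nM, with a log2(Fold Change) of -1.76 (adjusted p = 0.0042) and -2.70 (adjusted p = 7.3e-05). MAFF was 15.3, 21.6 and 15.05 CPM at 1000 nM, within the DMSO range, and 6.52, 6.82 and 6.76 CPM at 10000 nM, below it, with a log2(Fold Change) of -0.31 and -1.70 (adjusted p = 0.00016). SRF was 61.0 to 75.0 CPM at both doses against a DMSO range of 65.9 to 96.4 CPM, and its log2(Fold Change) was -0.24 (adjusted p = 0.061) and -0.37 (adjusted p = 0.0032). Per length SRF was the highest member with 10000 nM triptolide, at a median of 13.8 TPM, ahead of ARC at 3.06 TPM. That SRF median was below the lowest DMSO well, 24.65 TPM, so the overlap of SRF with DMSO depends on the scaling.

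All 10 members had a falling trend over the triptolide doses, where 17.8% of genes fell. The slopes per 10-fold dose ran from -4.25 for IER5 and -3.48 for NR4A3 to -1.45 for ARC and -0.32 for SRF. That of SRF (adjusted p = 0.018) lost the call without replicate 1 (adjusted p = 0.19), replicate 2 (0.052) or replicate 3 (0.12). IER5L did not pass the filter on low counts without replicate 1 or replicate 3, so that its trend has no value there.

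**Figure D3:**
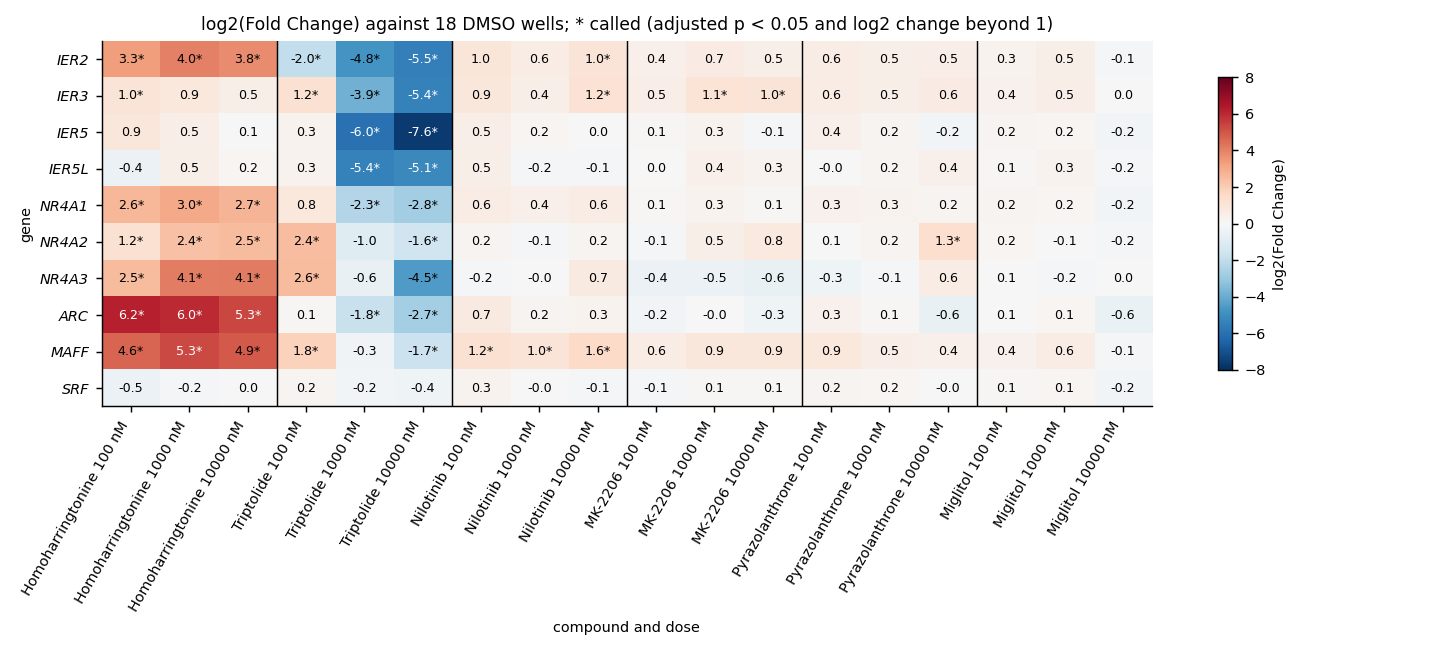
Colour and number give log2(Fold Change) against the 18 DMSO wells for each member (rows) at each compound and dose (columns), and an asterisk marks a call. Homoharringtonine columns hold the largest rises, up to 6.21 for ARC, and the 2 higher triptolide doses the largest falls, down to -7.63 for IER5. The column of 100 nM triptolide holds 4 rises, up to 2.56 for NR4A3, and the fall of IER2 (-1.97), and the other 4 compounds reach 1.55 at most.

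Triptolide and homoharringtonine, which block different steps of gene expression, were also compared directly at each dose. At 100 nM 1 member was higher with triptolide (20.5% of genes) and 4 were higher with homoharringtonine (27.4% of genes). NR4A2 was the first, with a log2 difference of 1.27 (SE 0.27, adjusted p = 0.00057), which was 0.79 without replicate 3 and had an adjusted p of 0.11 with DESeq2. ARC, IER2, MAFF and NR4A1 were the others, with log2 differences of triptolide minus homoharringtonine of -6.01, -5.21, -2.71 and -1.74. NR4A3 and IER3 differed by 0.14 (SE 0.24) and 0.31 (SE 0.18), which did not pass the test.

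At 1000 nM 9 members were higher with homoharringtonine (35.9% of genes), and likewise 9 at 10000 nM (37.9% of genes), in both cases every member except SRF. IER2 had the largest difference at either dose, -8.82 (SE 0.28) and -9.16 (SE 0.17). For SRF the difference was -0.08 (SE 0.19, adjusted p = 0.73) and -0.30 (SE 0.08, adjusted p = 0.0055).

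Of the other 4 compounds, nilotinib, MK-2206 and pyrazolanthrone raised 1 to 3 members at some doses, and miglitol moved none. Nilotinib raised MAFF at all 3 doses, the 1 member called at 100 nM (0.702% of genes raised) and at 1000 nM (0.745% of genes), and MAFF, IER3 and IER2 were the 3 called at 10000 nM (2.41% of genes). MAFF was 41.2, 51.9 and 53.6 CPM at 100 nM, 45.9, 51.7 and 33.2 CPM at 1000 nM and 66.8, 63.1 and 55.5 CPM at 10000 nM. These wells were above 17 of the 18 DMSO wells and below DMSO replicate 10.

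The log2(Fold Change) of MAFF with nilotinib was 1.19 (adjusted p = 0.012), 1.03 (adjusted p = 0.048) and 1.55 (adjusted p = 0.00026). At 100 nM the adjusted p was 0.071 without replicate 2 and 0.098 without replicate 3, and at 1000 nM it was 0.24, 0.15 and 0.085 without replicates 1, 2 and 3. Without the libraries under 10 mil, DMSO replicate 10 among them, it was 6.5e-05 and 0.00048. The wells with 100 nM differed among themselves in the same order for several members: replicate 1 was lowest for IER2, IER3, IER5, IER5L, NR4A1, ARC, MAFF and SRF, and it had the largest share of mitochondrially encoded mRNA, 0.25% against 0.11 and 0.16%. The part of that share in the result was not tested.

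At 10000 nM nilotinib, IER3 was 75.3, 78.7 and 70.1 CPM, above all DMSO wells, with a log2(Fold Change) of 1.15 (SE 0.12, adjusted p = 2.4e-07). IER2 was 147.4, 156.8 and 135.1 CPM, above 17 DMSO wells, and its log2(Fold Change) of 1.01 lay at the fold limit. It was 0.97 with DESeq2 and 0.95 without replicate 2, which ended the call. NR4A3 and NR4A1 had log2(Fold Change) of 0.74 (adjusted p = 0.0011) and 0.59 (adjusted p = 0.0013), under the fold limit. None of these calls held with scaling to mitochondrially encoded mRNAs, which took 0.35 to 0.39% of counts in these wells.

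IER3 was the 1 member raised by MK-2206 at 1000 nM (0.194% of genes raised) and at 10000 nM (0.56% of genes). It was 70.1, 70.2 and 71.5 CPM at 1000 nM and 70.9, 72.1 and 66.4 CPM at 10000 nM, above every DMSO well. The log2(Fold Change) was 1.08 (SE 0.12, adjusted p = 1.6e-05) and 1.05 (SE 0.12, adjusted p = 7.5e-06), and each stayed above 1 without any single replicate. With scaling to mitochondrially encoded mRNAs the call of IER3 at 10000 nM ended, at 0.78. At 100 nM the value was 0.54 (adjusted p = 0.17).

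Pyrazolanthrone raised 1 member, NR4A2, at 10000 nM (0.589% of genes raised). NR4A2 was 3.53, 3.22 and 4.23 CPM there, above all DMSO wells, with a log2(Fold Change) of 1.32 (SE 0.17, adjusted p = 1.1e-05), against 0.05 and 0.25 at the lower doses. With scaling to mitochondrially encoded mRNAs the NR4A2 call ended, at 0.92. It rose by 0.64 per 10-fold dose, the 1 member with a rising trend (8.88% of genes), while ARC fell by 0.48 and IER5 by 0.32, the 2 members with a falling trend (9.74% of genes). Without replicate 2 or replicate 3 none of the 3 trends passed, with adjusted p between 0.14 and 0.20. IER3 and NR4A3 had log2(Fold Change) of 0.63 (adjusted p = 0.0032) and 0.61 (adjusted p = 0.014) at 10000 nM.

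Miglitol gave no call at any dose, and its member values ran from -0.56 to 0.57 on the log2 scale. Replicate 2 of 1000 nM miglitol held the highest values of that group for IER2 (140.5 CPM), IER3 (65.1 CPM), ARC (89.6 CPM) and MAFF (42.7 CPM), with IER3 above all DMSO wells and the other 3 above 17 of them. Over all 18 comparisons with DMSO, 31 of the 180 pairs of member and comparison were raised and 16 lowered, and 6 comparisons had none. These totals pool comparisons with unlike shares of all genes called, so they are not a result about the members. Of all genes, 0.194% were raised with 1000 nM MK-2206 and 30.4% were lowered with 1000 nM triptolide. All 18 comparisons share the same 18 DMSO wells, so that their calls are not independent of each other.

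Other genes of the same response were read from 3 lists. Of other immediate early genes, 25 of 29 tested were raised with 100 nM homoharringtonine (15.6% of all genes), 23 of 29 with 1000 nM (21.5%) and 22 of 30 with 10000 nM (23.6%), with medians of 2.78, 2.73 and 2.40. EGR4, a zinc finger factor of the EGR family, had the largest log2(Fold Change) at 10000 nM, 10.94 (SE 0.67), with 543.9 ± 70.8 CPM (SD, n = 3). In DMSO its median was 0.13 CPM, and replicate 10 alone held 68.3 CPM, against at most 0.94 CPM in the other 17 wells. That well carried the DMSO mean of 3.97 CPM, so the ratio of the means is far below the fitted fold. Without the libraries under 10 mil the EGR4 value was 11.38. EGR2, a factor of the same family, followed at 8.26 (SE 0.26), and its DMSO replicate 10, at 12.3 CPM, was also above the other 17 DMSO wells. MYC, a growth regulator, fell by 2.01 at that dose after a rise of 1.99 at 100 nM, and KLF2 had the smallest change among the raised genes, 1.25.

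Triptolide lowered 26 of 29 of these genes at 10000 nM (30.2% of all genes) and 25 of 30 at 1000 nM (30.4%), with medians of -5.45 and -4.16. At 100 nM 4 of 29 were raised (11.4%) and 7 lowered (20.9%). JUN and JUNB, AP-1 subunits, had log2(Fold Change) of -6.10 (SE 0.30) and -6.09 (SE 0.37) at 10000 nM. FOSB and EGR2, with DMSO medians near the floor, had -3.12 (SE 0.86) and -1.83 (SE 0.67). These medians were 1.32 and 0.57 CPM, against 121.6 CPM for JUN and 21.7 CPM for JUNB. The part of the low level in the smaller falls was not tested. DMSO replicate 10 held 33.3 CPM of FOSB, against at most 1.82 CPM in the other DMSO wells. Without the libraries under 10 mil FOSB and EGR2 were at -2.94 and -1.74. FOSB was raised at 100 nM, by 5.19, as were EGR3, PTGS2 and ATF3, by 2.92, 2.14 and 1.21. With library sizes only the ATF3 call ended, at 0.87. Without the libraries under 10 mil EGR3 and PTGS2 were also raised at 1000 nM.

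**Figure D4:**
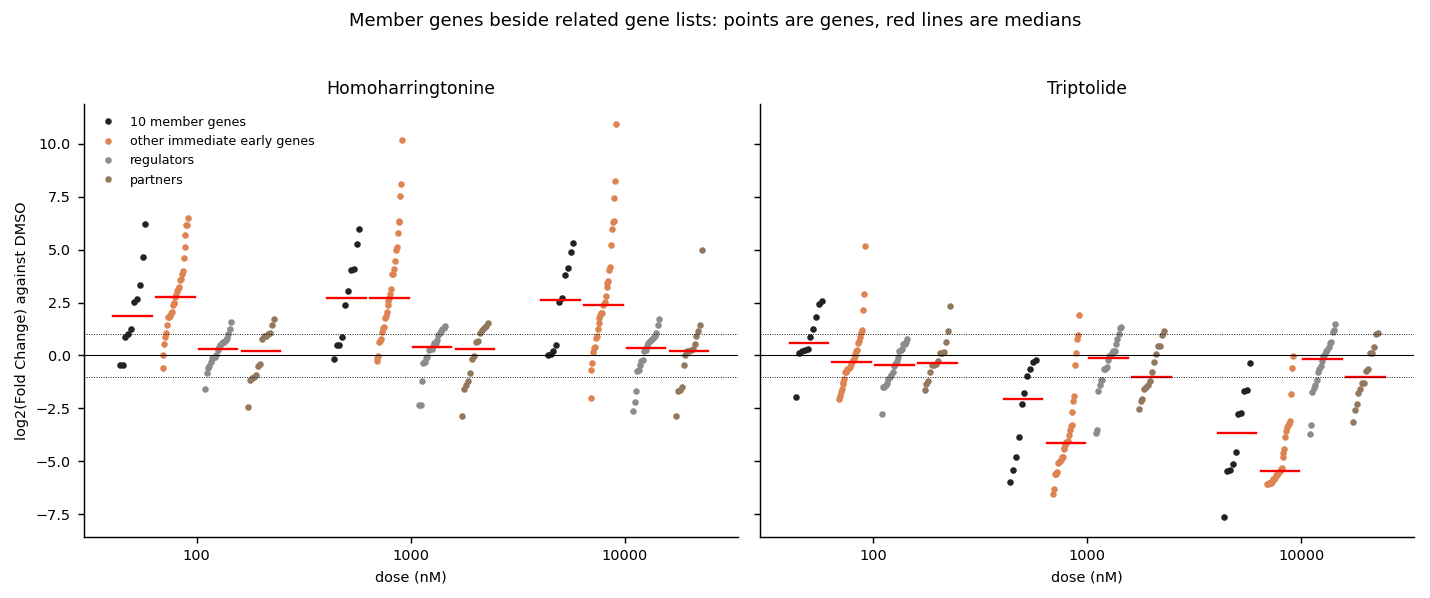
Points give log2(Fold Change) against DMSO for single genes of the 10 members and of 3 related lists at each dose of homoharringtonine and triptolide, red lines give list medians and dotted lines the fold limits. The members and the other immediate early genes have medians of 2.61 and 2.40 with 10000 nM homoharringtonine and of -3.66 and -5.45 with 10000 nM triptolide, while the medians of regulators and partners stay between -1.02 and 0.38.

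The regulators, 20 kinases and factors that act on SRF and CREB, had shares of calls near or below those of all genes at the highest dose of both compounds. With 10000 nM homoharringtonine 3 of 20 were raised (23.6% of all genes) and 3 lowered (23.4%). The Mediator subunit MED23 and the kinase RPS6KA5 rose by 1.72 and 1.45, and the factor ELK3 and the SRF coactivator MRTFB fell by 2.62 and 2.22. With 10000 nM triptolide 3 of 20 were raised (16.2% of all genes) and 6 lowered (30.2%). MRTFA and MRTFB fell by 3.70 and 3.30, and the kinases MAPK3 and RPS6KA4 rose by 1.48 and 1.22, calls that were lost with library sizes only. Nilotinib, MK-2206 and miglitol gave no call among regulators or partners, while nilotinib raised 5, 3 and 11 of 29 other immediate early genes in order of dose, where 0.702, 0.745 and 2.41% of all genes were raised. With library sizes only the first count was 3.

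Partners of the members, such as the receptors that pair with NR4A proteins, gave 3 raised and 4 lowered genes of 15 with 10000 nM homoharringtonine, shares near the 23.6% and 23.4% of all genes. RXRG, a retinoid receptor, was called at 0.50 CPM against 0.012 CPM in DMSO, and PPP2R2A, a PP2A subunit, rose by 1.43. NFE2L1, which pairs with small MAF proteins, fell by 2.87 and RXRA by 1.70. With 10000 nM triptolide 1 was raised and 7 lowered of 14, against 16.2% and 30.2% of all genes. HSF1, the heat shock factor, rose by 1.05, a call that was lost with library sizes only (0.51), and NFE2L2, BACH1 and RXRB fell by 3.16, 2.57 and 1.29.

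Group means over the 19 groups show how the members vary with each other; these points share the DMSO wells and the extremes set by 2 compounds, so the correlations are descriptions. IER3 and IER5 had the most similar profiles (r = 0.977), with IER5L close to both (0.915 and 0.926). ARC and MAFF (0.971), MAFF and NR4A3 (0.951) and MAFF and NR4A1 (0.938) formed another set of high values. SRF had r between -0.238 and 0.531 with the rest.

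Among 13802 protein-coding genes, the closest profile to that of IER2 was CWC25 (r = 0.992), to IER3 ORAI1 (0.984), to IER5 ABT1 (0.999) and to IER5L MON1B (0.987). NR4A1 was closest to C16orf46 (0.988), NR4A2 to UNC5B (0.946) and NR4A3 to RND1 (0.985). ARC was closest to LTO1 (0.989), MAFF to ERN1 (0.984) and SRF to RAB11FIP3 (0.936).

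Antisense or overlapping genes lie on IER2, IER3, IER5L, NR4A1, NR4A3 and MAFF in the GENCODE annotation of GRCh38, release 44. Examples are IER3-AS1, NR4A1AS and PLA2G6, which runs opposite to MAFF. Whether the counting used the strand is not given in the sources used here, so reads of such pairs may not be fully separated. IER5, NR4A2, ARC and SRF have no overlapping gene.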

How the data were processed

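Population RNA-seq libraries of 72 U2OS wells were used. Groups, doses and replicate numbers came from the sample labels, which give the middle dose as 1000 nM. The study's methods text writes 1 nM for it, and which is right was not tested. The labels do not say that wells were separate cultures, so p-values measure the spread between wells. Submitters' processing notes name HTSeq, RSEM, DESeq2 and GRCh38; the RSEM version, aligner, annotation release and strand setting are not given in the sources used here. The deposited expected counts are the authors' RSEM estimates of reads per gene, not normalized. RSEM as run by the authors also gave TPM, which adjust for gene length and sum to a constant, and FPKM, which adjust for length and mapped reads; FPKM were used only to check the order of DMSO levels.

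Expected counts were rounded and entered into edgeR 4.0.16 under R 4.3.3 (TMM, filterByExpr with a smallest count of 10, quasi-likelihood test, Benjamini-Hochberg adjustment over all tested genes). Each compound and dose was set against 18 DMSO wells, triptolide against homoharringtonine at each dose, and trends on log10 dose were fitted over 9 wells, with calls by adjusted p alone. DESeq2 1.42.0, other scalings and filters, leaving out each replicate, and a replicate block were alternatives. Intervals of counting error were not used; reads carry no molecular identifiers. No library was a copy of another in its group: over 207 pairs the lowest chi-square per degree of freedom was 1.36. On simulated counts edgeR recovered 200 of 200 changed genes (log2 change of 2, 3 against 18 wells, 18320 genes) with 0 false calls. For 3 against 3 wells it recovered 200 of 200 with 6 false calls (17535 genes). For the trend over 9 wells, simulated with a log2 slope of 1, it recovered 200 of 200 with 17 false calls (18050 genes). No smaller change was simulated, and the expression levels and library depths simulated are not given here. Recovery is therefore not read as applying to changes near the fold limit, members with few counts or libraries under 10 mil.

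Members and gene lists were chosen with earlier results of these data known. Named genes were all members; from each list, the 2 largest and 2 smallest changes among those called at 10000 nM homoharringtonine and triptolide; and the 3 protein-coding genes most correlated with each member over group means of log2(CPM + 1), of which the first is given. EGR3, PTGS2, ATF3, and FOSB and MYC at 100 nM, were named after their values were seen.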

Additional observations from a re-analysis of the deposited data

Results flagged for a closer look

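The effect of triptolide on 4 members differed between doses, with calls in opposite directions at the lowest and highest dose and a trend that passed the test. The slope per 10-fold dose was -3.41 for IER3 and -3.48 for NR4A3, and -2.08 for NR4A2 and -1.81 for MAFF, each with an adjusted p below the threshold in edgeR's quasi-likelihood test over the 9 triptolide wells. All 4 were raised at 100 nM and lowered at 10000 nM. Replicate 2 at 100 nM held 70767 counts, with 4 of them for IER3, 1 for NR4A2, 0 for NR4A3 and 7 for MAFF.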

How the results depend on the processing

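Counts of members called kept within 1.5 times of the reported value under the alternatives apart from the following. With scaling to mitochondrially encoded mRNAs the members raised went to 0 with 100 nM triptolide, 10000 nM nilotinib, 1000 nM nilotinib, 10000 nM MK-2206 and 10000 nM pyrazolanthrone and to 5 with 100 nM nilotinib, and the members lowered went to 5 and 10 with 100 and 1000 nM triptolide. Under it the log2 values with 100 nM triptolide reversed to -0.44 for IER3, -1.33 for IER5, -1.49 for IER5L, -1.57 for ARC and -1.47 for SRF, the triptolide minus homoharringtonine differences at 100 nM to -1.34 for IER3, -0.39 for NR4A2 and -1.52 for NR4A3 (0 members higher with triptolide, 7 with homoharringtonine), and the nilotinib slopes to -0.59 for IER2 and -0.49 for IER3. Trends then gave 1 rising and 1 falling member for homoharringtonine, 10 falling for miglitol, 8 falling for nilotinib and 0 rising for pyrazolanthrone. The same scaling moved the median slope of all genes by -0.08, -0.425, -0.561 and -0.3 for these compounds in turn. These counts are therefore not particular to the members. Counts against DMSO and between triptolide and homoharringtonine under this scaling lack the share of all genes, and are not read as particular to the members either. This scaling assumes that mitochondrial transcripts keep a fixed amount, and the cause of these changes was not tested. A minimum of 10 counts in every library left 4 members raised with 100 nM homoharringtonine, 5 lowered with 10000 nM triptolide, 5 higher with homoharringtonine at 10000 nM, 0 with 1000 nM nilotinib and 0 with 10000 nM pyrazolanthrone; IER5L, NR4A2 and NR4A3 did not pass this filter in comparisons with DMSO, with 10000 nM triptolide IER5 did not either, and with 100 nM triptolide and in the triptolide trend no member did, so that it gives no value there, while for 1000 nM nilotinib MAFF was tested and had an adjusted p of 0.066. The nilotinib trend gave 1 rising. With the adjusted p alone, 1 was lowered with 100 nM homoharringtonine, and 2, 5, 5, 1 and 3 were raised with 10000 nM MK-2206, 100 nM nilotinib, 10000 nM nilotinib, 100 nM pyrazolanthrone and 10000 nM pyrazolanthrone. Shares of all genes by adjusted p alone are not given here, so these counts are not a result about the members. For 1000 nM nilotinib the count was 0 with library sizes only, no filter or DESeq2, and for 100 nM nilotinib 2 without the libraries under 10 mil. DESeq2 gave 0 members higher with triptolide at 100 nM and trends of 3 falling for miglitol, 1 rising for nilotinib and 2 rising for pyrazolanthrone, and library sizes only gave 1 rising for nilotinib. Leaving out each replicate gave 0 to 3 members with 100 nM nilotinib, 0 to 0 with 1000 nM nilotinib, 0 to 1 higher with triptolide at 100 nM, 1 to 3 falling for homoharringtonine, and 0 to 1 rising and 0 to 2 falling for pyrazolanthrone; the 3-well arms then held 2 wells. In the lists, library sizes only gave 2 regulators lowered and 2 partners raised with 100 nM homoharringtonine, 1 partner raised with 100 nM triptolide, and 0 regulators and 0 partners raised with 1000 or 10000 nM triptolide, and for other immediate early genes with 100 nM nilotinib it gave 3 raised in place of 5. Without the libraries under 10 mil 2 other immediate early genes were raised with 1000 nM triptolide. Same-numbered wells did not deviate together: the mean correlation was -0.06, against 0.03 for different numbers, and 2 of 21 comparisons had every same-number correlation over 0.1. The numbers were not taken to pair the wells. The replicate block gave 2 members raised with 10000 nM MK-2206, 0 with 100 nM nilotinib, 0 with 1000 nM nilotinib and 1 rising in the nilotinib trend, where the comparisons with DMSO used wells 1 to 3. Depth limits the members with few counts, NR4A2, NR4A3 and IER5L, most, and the 2 libraries under 1 mil give at most 4 counts for each.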
